A study of Mus musculus with 6 samples.

Results

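Proteasome subunit genes were taken from the gene table by name: every gene called Psma, Psmb, Psmc or Psmd followed by a number, without the immunoproteasome genes Psmb8 and Psmb9. This gave 35 of the 21686 genes of the table, all annotated as protein-coding. They were 7 genes of the alpha ring, 8 of the beta ring, 6 ATPases, 11 non-ATPase subunits of the base and lid, and 3 genes (Psmd5, Psmd9 and Psmd10) that share the Psmd name but encode chaperones that help to assemble the base and are not subunits of the finished particle. Psmb10, an immunoproteasome subunit, stayed in by its name.

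The proteasome degrades proteins that have been tagged with ubiquitin. Its core particle is a barrel of stacked rings, in which the outer alpha rings gate the entrance and the inner beta rings carry the proteolytic sites. The regulatory particle sits on the barrel: a ring of ATPases unfolds the substrate, ubiquitin receptors bind it, and the lid removes the ubiquitin chain. The subunits are needed together in one complex, and many of their genes are known targets of the transcription factor NRF1, encoded by Nfe2l1, which binds antioxidant response elements. In osteoblasts, proteasomes also degrade RUNX2 and other regulators of bone formation.

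RNA of MC3T3-E1 Subclone 14 cells, a clonal mouse line of osteoblast precursors, was sequenced in 6 libraries, 2 in each of 3 groups. Control cells received PBS, dexamethasone cells received 10 µM of this synthetic glucocorticoid, and dexamethasone + EPC-EVs cells received the same 10 µM together with 100 µg of extracellular vesicles shed by bone marrow endothelial progenitor cells of mice. By the sample labels and the study's methods, all cultures were treated for 72 hours, whereas the series' own design text speaks of fibroblasts and of a shorter treatment. No group received the vesicles without dexamethasone, the line is 1 clone, and vesicles can carry RNA of their own into a library. The study calls the libraries of a group biological replicates, without saying whether they came from separate cultures, so the p-values below measure the spread between these libraries, which may be in part technical.

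The control and dexamethasone libraries held between 5146760 and 6583735 counts. Those of dexamethasone + EPC-EVs, called the vesicle libraries here, were deeper, at 12864009 and 13182014 counts, so that 3 counts, the most that a count of 0 allows, are worth 0.235 to 0.597 CPM for counting error only. CPM scale each count to the total of its library, here after TMM normalization. Mitochondrially encoded genes held 5.55% to 8.62% of the counts in the first 4 libraries, but 0.465% and 0.727% of those in the vesicle libraries. The osteoblast marker Runx2 lay between 152 and 202 CPM in every library, while Alpl, Bglap, Bglap2 and Ibsp did not pass 6.57 CPM in any. Sp7 had 20.6 and 3.61 CPM in the vesicle libraries and 1.19 to 6.26 CPM in the others. Bglap, at 6.57 and 0.628 CPM, differed between the vesicle libraries as well. The 11 osteoblast markers summed to between 16978 and 19569 CPM in the first 4 libraries and to 40714 and 37309 CPM in the vesicle libraries, where Col1a1, Col1a2, Postn and Sparc were called higher than in dexamethasone and Spp1 lower. Of 7 endothelial markers, 6 were in the table, with a summed level of 361 to 416 CPM in the first 4 libraries and of 290 and 242 CPM in dexamethasone + EPC-EVs, nearly all of it Cd34, and Cdh5, Prom1 and Tek had no count in dexamethasone + EPC-EVs. Pecam1 had 1 and 21 counts there and at most 7 in the first 4 libraries, and Vwf had 19 and 18 counts there. Of 4 blood cell markers, 2 were in the table, at a summed 1.65 to 4.95 CPM, and the 6 fibroblast markers summed to 2977 to 3457 CPM, with Pdgfrb called higher and Dcn, Lum and Thy1 called lower under the vesicles than under dexamethasone alone. The part of depth, mitochondrial share and cell makeup in the results below was not tested beyond the values given. In bulk RNA, more cells of a type and more RNA per cell cannot be told apart.

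The start regions of 4 subunit genes are shown first, as examples of the different outcomes within the complex: the catalytic genes Psmb5 and Psmb6, called higher with the vesicles than in dexamethasone, the ATPase gene Psmc6, not called, and the alpha ring gene Psma4, called lower. The outcomes of Psmb6, Psmc6 and Psma4 changed once the trend on base composition and length had been taken out, as given further on. Each run is the 250 bases before the RefSeq start on GRCm38.p6, 5′ to 3′ on the gene's strand, and the capitals mark the letters TGACNNNGC, a form of the antioxidant response element, or their reverse complement.
Psmb5, chr14:54617996-54618245, minus strand: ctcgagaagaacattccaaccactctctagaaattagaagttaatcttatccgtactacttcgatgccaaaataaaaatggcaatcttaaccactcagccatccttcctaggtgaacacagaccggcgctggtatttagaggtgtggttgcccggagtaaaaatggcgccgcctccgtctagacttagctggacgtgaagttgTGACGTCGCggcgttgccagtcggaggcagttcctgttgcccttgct
Psmb6, chr11:70525107-70525356, plus strand: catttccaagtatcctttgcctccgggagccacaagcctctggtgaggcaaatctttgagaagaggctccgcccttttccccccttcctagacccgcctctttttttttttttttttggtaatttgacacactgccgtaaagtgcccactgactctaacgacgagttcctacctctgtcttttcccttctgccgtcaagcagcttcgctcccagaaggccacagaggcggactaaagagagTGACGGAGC
Psmc6, chr14:45329574-45329823, plus strand: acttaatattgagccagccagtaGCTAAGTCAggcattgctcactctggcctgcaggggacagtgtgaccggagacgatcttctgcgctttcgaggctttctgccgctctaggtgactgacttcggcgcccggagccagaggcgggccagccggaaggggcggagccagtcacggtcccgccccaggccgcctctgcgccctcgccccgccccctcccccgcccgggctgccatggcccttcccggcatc
Psma4, chr9:54950609-54950858, plus strand: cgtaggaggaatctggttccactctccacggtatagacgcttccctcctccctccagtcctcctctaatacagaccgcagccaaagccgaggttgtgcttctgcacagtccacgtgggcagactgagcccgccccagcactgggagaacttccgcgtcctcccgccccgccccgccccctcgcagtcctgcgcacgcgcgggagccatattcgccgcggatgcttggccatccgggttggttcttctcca

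Psmb5 held these letters at position -47 from its start and Psmb6 at position -9, both on the gene's strand, and Psmc6 held the reverse complement at position -227. The 250 bases of Psma4 held no such run. In windows from 250 bases before to 50 bases after the start, which RefSeq's table gave for 29 of the 35 genes, TGACNNNGC was found on either strand in 5 (Psmb5, Psmb6, Psmc6, Psmd9 and Psmd12), or 17.2%, beside 14.0% of 27025 genes with such a window. The letters CCGGAAG, the core bound by ETS family factors, were found in 10 of the 29, or 34.5%, beside 9.93% of all windows. No match of one overlapped a match of the other. The table held no window for Psmb1, Psmb2, Psmb7, Psmc3, Psmd3 and Psmd7. A match of letters is a description of the sequence, not a site shown to be bound.

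Read per length, the genes were not equal in RNA. The group means of FPKM, a level scaled by library total and gene length that the authors deposited beside the counts, spanned a 44.5-fold range in control, a 47.1-fold range in dexamethasone and a 22.4-fold range with EPC-EVs. Psmb10 and Psmd9 set the lower ends, and over the 31 genes left without Psmb10 and the 3 chaperones the ranges were 10.1-fold, 9.67-fold and 10.8-fold. The median over the 35 genes was 17.2 FPKM in control, 18.0 FPKM in dexamethasone and 26.0 FPKM with EPC-EVs. In control, Psma4 (57.2 ± 14.1 FPKM, SD, n = 2), Psmc5 (53.9 ± 3.57 FPKM) and Psmc1 (50.3 ± 3.42 FPKM) stood at the head of the order, with libraries that overlapped. Psmb10 stood last, at 1.29 ± 0.599 FPKM in control and 1.38 ± 1.45 FPKM in dexamethasone. In dexamethasone, Psmb1, a beta ring subunit without a catalytic site, led at 65.1 ± 1.70 FPKM, above both libraries of Psma6 and Psmb2, which could not be ordered between themselves at 53.1 FPKM each. With EPC-EVs, Psmb1 led again at 117 and 96.6 FPKM, and the next gene, Psmd2, was at 59.4 and 55.9 FPKM. Psmd9 was last there, at 4.77 ± 0.435 FPKM, under Psmb10 at 6.36 ± 0.619 FPKM. Any such order depends on the gene length used, here 7248 bases for Psmd9 and 1705 for Psmb10. In CPM, which leave length out, Psmd9 stood above Psmb10 with EPC-EVs, at means of 35.5 and 11.1 CPM. Psma4, first in control, was in place 21 of 35 in dexamethasone + EPC-EVs at 24.1 ± 4.91 FPKM.

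**Figure D1:**
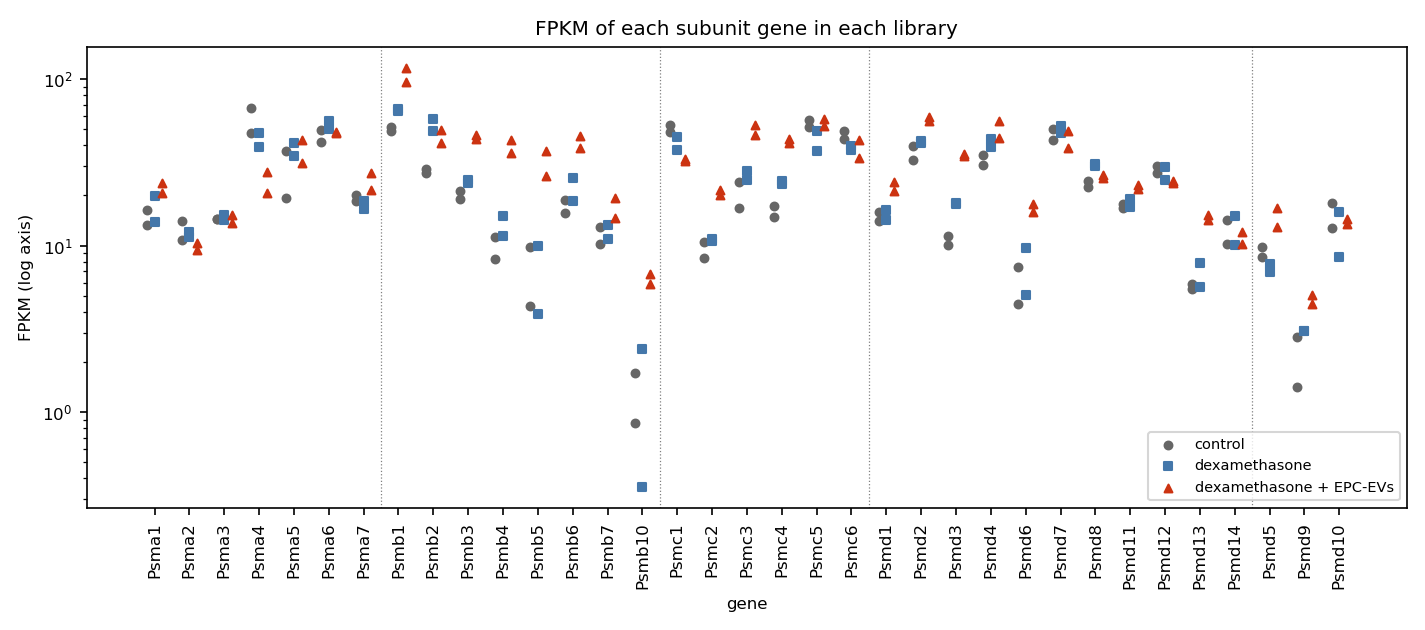
FPKM of each of the 35 genes on a log axis, with 1 point per library, grey circles for control, blue squares for dexamethasone and red triangles for dexamethasone + EPC-EVs, and dotted lines between the alpha ring, the beta ring, the ATPases, the non-ATPases and the chaperones. Psmb10 and Psmd9 lie lowest and Psmb1 in dexamethasone + EPC-EVs highest, and Psmb4, Psmb5 and Psmb10 stand well above the other 2 groups there.

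The first comparison asks what dexamethasone alone did to the complex. All 35 genes passed the filter on low counts. No subunit gene was called by edgeR's quasi-likelihood test at a Benjamini-Hochberg adjusted p under 0.05 over all 12879 genes tested, where 0.0155% of genes were called higher and 0.0388% lower. DESeq2 called none of those it gave an adjusted p, which it withheld for Psmb4, Psmb5, Psmb6, Psmb10, Psmd6, Psmd9, Psmd10, Psmd13 and Psmd14, and at an unadjusted p under 0.05 in edgeR 2 were higher and 1 lower of the 35, where 5.61% and 5.33% of all genes were. None passed the study's own thresholds, an unadjusted p under 0.05 with a change of more than 1.5 on the log2 scale, where 0.831% of all genes passed upward and 0.582% downward. With a trend on GC content and length removed, as described further on, none was called either, where 0.0621% of all genes were in each direction. The median log2 fold change was 0.10 over the 35 genes and 0.01 over all genes tested, 20 of the 35 lay above 0, and the values ran from -0.49 to 0.84.

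Psmb2, another non-catalytic beta ring gene, had 32.9 and 35.4 CPM in control and 66.4 and 56.7 CPM in dexamethasone, the highest fold change of the set, 1.79 (log2 0.84 ± 0.23 SE, edgeR adjusted p = 0.291). The lid gene Psmd3 had 56.8 and 51.2 CPM in control and 85.9 and 85.2 CPM in dexamethasone (log2 0.66, adjusted p = 0.326 in edgeR). The lowest value was that of Psma4, with 112 and 163 CPM in control and 88.2 and 109 CPM in dexamethasone (log2 -0.49, adjusted p = 0.453 in edgeR). The libraries of the 2 groups did not overlap in any of these 3 genes. Over all 35, 10 genes lay higher in dexamethasone without overlap and 6 lower, where 22.8% and 21.2% of all genes did. The result depended on the first control library: without it, edgeR called Psma5 (log2 0.88), Psmb2 (0.80) and Psmd3 (0.74) higher and Psma4 (-0.72) lower, with adjusted p from 0.0017 to 0.0186, but in that fit 9.25% of all genes were called higher and 6.8% lower, beside 8.57% and 2.86% of the 35. Leaving out any other library gave no call.

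The second comparison asks what the vesicles added on top of dexamethasone, and here the members split. Of the 35 genes, 17 were called higher with the vesicles and 1 lower, which is 48.6% and 2.86%, where 20.9% of the 13556 genes tested were called higher and 18.9% lower. The median log2 fold change was 0.51 over the 35 genes and 0.01 over all genes, and 26 lay above 0. In the beta ring, 6 of the 8 genes were called higher and none lower, with a median of 0.96. Psmb10, 1 of these 6, passed the filter on low counts through the vesicle libraries. The alpha ring had 1 gene called higher, 1 lower and a median of 0.01. These medians of the rings were 0.65 and 0.33 once the trend on base composition and length had been taken out. The calls in the rings moved as well: Psmb6, Psmb10, Psma4 and Psma7 were no longer called, and Psma1, Psma2 and Psma3 were called higher. Summed over the 35 genes, the level was 2165 and 2123 CPM in dexamethasone and 3005 and 2969 CPM with EPC-EVs, after 2095 and 2097 CPM in control, and their share of all counts was 0.226% and 0.219%, 0.295% and 0.287%, and 0.210% and 0.205%. Without overlap between the groups, 22 genes lay higher and 4 lower, where 38.5% and 34% of all genes did. By the study's thresholds the count was 3 higher and 0 lower, or 8.57% of the 35, where 7.05% of all genes were higher and 7.13% lower.

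**Figure D2:**
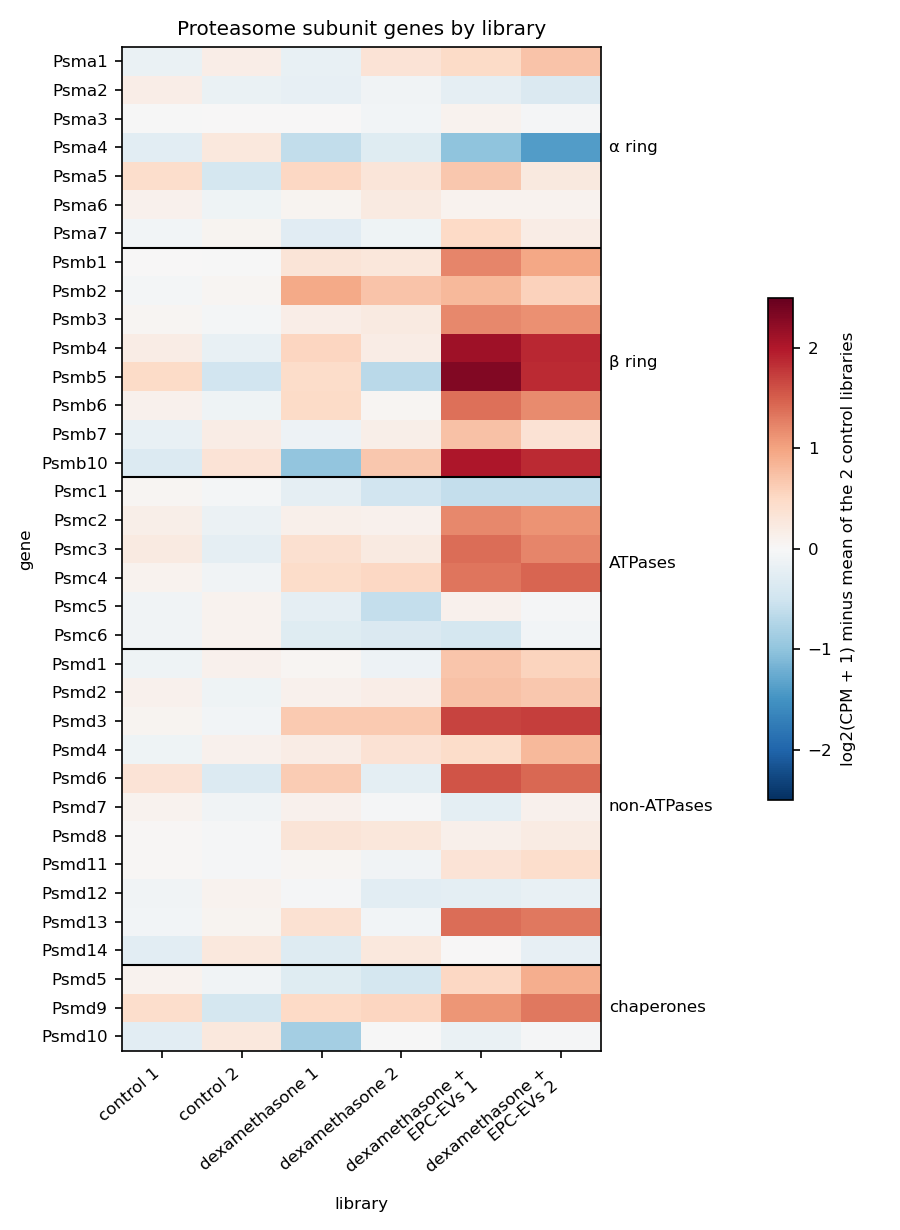
Each row is a gene and each column a library, and the colour gives log2(CPM + 1) minus the mean of the 2 control libraries, red for higher and blue for lower, with lines between the role groups. Psmb4, Psmb5 and Psmb10 are the deepest red in both dexamethasone + EPC-EVs columns, Psma4 is the deepest blue, and most of the alpha ring is pale in every column.

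The catalytic genes of the beta ring come first. Psmb5 (chr14:54614119-54618022, minus strand, GRCm38), the subunit that cleaves after hydrophobic residues and the main target of proteasome inhibitor drugs, had 8.80 and 3.98 CPM in control, 8.59 and 3.39 CPM in dexamethasone, and 33.7 and 24.4 CPM with EPC-EVs. Both vesicle libraries lay above all the others, and behind the values stood 59 and 23 counts in dexamethasone and 425 and 311 with EPC-EVs. The group means were 5.99 ± 3.68 and 29.0 ± 6.54 CPM (SD, n = 2). The fold as edgeR fitted it, which is the fold given for every gene here, was 4.68 (log2 2.23 ± 0.40 SE, edgeR adjusted p = 0.00108). The size depended on the dexamethasone libraries: without the first it was log2 3.07 and without the second 1.71, called both times.

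Psmb6 (chr11:70525367-70527858, plus strand), which cleaves after acidic residues, had 35.0 and 30.1 CPM in control, 45.6 and 33.4 CPM in dexamethasone, and 86.2 and 75.1 CPM with EPC-EVs. It rose 1.98-fold over dexamethasone (log2 0.98 ± 0.20 SE, edgeR adjusted p = 0.0023). Psmb7 (chr2:38588036-38644087, minus strand), which cleaves after basic residues, had 35.0 and 45.2, 36.1 and 44.0, and 66.9 and 51.5 CPM in the same order. Its vesicle libraries also lay above the rest, but it did not pass the test, at log2 0.52 with a 95% interval of 0.06 to 0.97 (adjusted p = 0.0671 in edgeR), and without the second dexamethasone + EPC-EVs library it did, at log2 0.72 (adjusted p = 0.0145 in edgeR), while without the first it stood at 0.33 (adjusted p = 0.327 in edgeR).

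Psmb10 (chr8:105935735-105938444, minus strand) takes the place of Psmb7 in the immunoproteasome, the form that interferon induces and that cuts peptides for antigen presentation. Its counts were few: 9 and 15 in control, 4 and 27 in dexamethasone, and 149 and 133 with EPC-EVs, or 0.582 and 3.97 CPM in dexamethasone against 11.8 and 10.4 CPM. The 4 counts of the first dexamethasone library were under the limit of the filter on low counts, so the gene passed it here through the vesicle libraries. The log2 fold change was 2.24 ± 0.65 SE (edgeR adjusted p = 0.0172). That value rested on the dexamethasone libraries: without the first it was 1.45 and not called, and without the second it was 4.18. With the trend on GC content and length removed it was 1.60 and not called. The other 2 immunoproteasome beta genes, left out of the set by its rule, were not called: Psmb8 had 21.4 and 21.3 CPM in dexamethasone and 36.2 and 23.9 CPM with EPC-EVs, and Psmb9 had 12.4 and 8.54 CPM and then 6.42 and 4.24 CPM.

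Psmb4 (chr3:94884093-94886961, minus strand), a structural subunit added late when the ring closes, carried the smallest adjusted p of the set. It had 21.8 and 16.5 CPM in control, 28.1 and 21.6 CPM in dexamethasone, and 86.2 and 72.5 CPM with EPC-EVs. The means rose over dexamethasone from 24.9 ± 4.57 to 79.3 ± 9.70 CPM (SD, n = 2), with a fitted fold of 3.09 (log2 1.63 ± 0.21 SE, edgeR adjusted p = 0.000112). The structural genes Psmb3 (log2 0.94) and Psmb1 (0.76) were called higher too. Psmb2 was the exception among them, whose 60.9 and 51.5 CPM with EPC-EVs overlapped the 66.4 and 56.7 CPM of dexamethasone (log2 -0.18, 95% interval -0.58 to 0.23).

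The alpha ring genes build the outer rings and their gate, and 2 of the 7 were called. Psma4 (chr9:54950790-54958030, plus strand) was the 1 gene of the 35 called lower than in dexamethasone: its libraries fell from 88.2 and 109 CPM to 66.7 and 50.7 CPM, a fold of 0.577 (log2 -0.79 ± 0.19 SE, edgeR adjusted p = 0.00547). Without the second dexamethasone library the value was -0.63 and was not called (adjusted p = 0.0953 in edgeR). Psma7 was called higher at log2 0.51 with an adjusted p of 0.0436 in edgeR, with 49.1 and 55.4 CPM in dexamethasone and 85.3 and 68.3 CPM with EPC-EVs. That call was lost without either dexamethasone library or the first vesicle library, with log2 values of 0.44, 0.60 and 0.35. It was lost too with DESeq2, upper quartile normalization, library totals alone, 1 fit of all libraries, the length trend removed and the GC and length trend removed. Psma1 (chr7:114264606-114276118, minus strand) had 39.0 and 56.7 CPM and then 62.3 and 72.6 CPM (log2 0.45, 95% interval -0.01 to 0.91, adjusted p = 0.109 in edgeR). The remaining 4, Psma2, Psma3, Psma5 and Psma6, had log2 values from -0.20 to 0.02. Psma3 lay between 54.0 and 60.5 CPM in all 6 libraries, with a 95% interval of -0.37 to 0.40.

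The 6 ATPases form the unfolding ring of the base, and they divided into 3 that rose and 3 that were not called. Psmc2 had 52.7 and 52.0 CPM in dexamethasone and 111 and 105 CPM with EPC-EVs, a 1.99-fold rise (edgeR adjusted p = 0.000444, 95% interval of the log2 fold change 0.65 to 1.34). Psmc3 (log2 0.96) and Psmc4 (0.87) rose by like amounts. Psmc6 (chr14:45329788-45349705, plus strand), the ATPase with the lowest GC content, had 153 and 174 CPM in control, 132 and 127 CPM in dexamethasone, and 120 and 155 CPM with EPC-EVs (log2 0.03, 95% interval -0.31 to 0.38). Psmc5 (log2 0.39, 95% interval -0.00 to 0.79) and Psmc1 (-0.29, 95% interval -0.66 to 0.07) were the other two.

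Of the 11 non-ATPase subunits, 5 were called higher and none lower, and the median on the log2 scale was 0.37. The lid gene Psmd6 (chr14:14112174-14120984, minus strand) had 26.1 and 13.7 CPM in dexamethasone and 50.6 and 46.1 CPM with EPC-EVs, a 2.35-fold rise (log2 1.24 ± 0.28 SE, edgeR adjusted p = 0.00472). Psmd13, also of the lid, rose by log2 1.18 and Psmd3 by 1.02, the latter from 85.9 and 85.2 CPM to 176 and 181 CPM. The large scaffold genes of the base, Psmd1 and Psmd2, rose less, by log2 0.62 and 0.51. Both lost their call without the second dexamethasone library (log2 0.53 and 0.54), and Psmd2 also without the first (0.50). With the trend on GC content and length removed, Psmd3 (0.34) and Psmd2 (0.33) were no longer called, while Psmd1, Psmd6 and Psmd13 were.

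Of the non-ATPases not called, 2 handle ubiquitin. Psmd4 (chr3:95032694-95042614, minus strand), a receptor that binds ubiquitin chains, had 105 and 119 CPM in dexamethasone and 127 and 163 CPM with EPC-EVs (log2 0.32, 95% interval -0.03 to 0.68, adjusted p = 0.132 in edgeR), and was called at 0.51 without the first dexamethasone + EPC-EVs library but stood at 0.15 without the second. Psmd14 (chr2:61711694-61800376, plus strand), the metalloprotease that cuts the chain off the substrate, had 27.2 and 41.4 CPM and then 34.7 and 29.8 CPM (log2 -0.13, 95% interval -0.67 to 0.40). Psmd7, the partner of Psmd14 in the lid, was also near 0 (log2 -0.15, 95% interval -0.50 to 0.20). Psmd8 (-0.18), Psmd12 (-0.13) and Psmd11 (0.37, adjusted p = 0.0538 in edgeR) completed the lid genes of the set. Psmd11 was called without the first vesicle library (0.43), with no filter and with at least 10 counts in every library. It was called too with the length trend or the GC and length trend removed.

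Among the chaperones of base assembly, Psmd5 had 53.7 and 48.9 CPM in dexamethasone and 95.4 and 126 CPM with EPC-EVs (log2 1.07 ± 0.18 SE, edgeR adjusted p = 0.00073). Psmd9 was called at log2 0.68 (adjusted p = 0.0316 in edgeR), and lost the call without either dexamethasone library or the second dexamethasone + EPC-EVs library, with log2 values of 0.69, 0.69 and 0.59. DESeq2, 1 fit of all libraries and removal of the trend on GC content and length (0.44) ended the call of Psmd9 as well. Psmd10, known as gankyrin, was not called (log2 0.24, 95% interval -0.46 to 0.93).

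**Figure D3:**
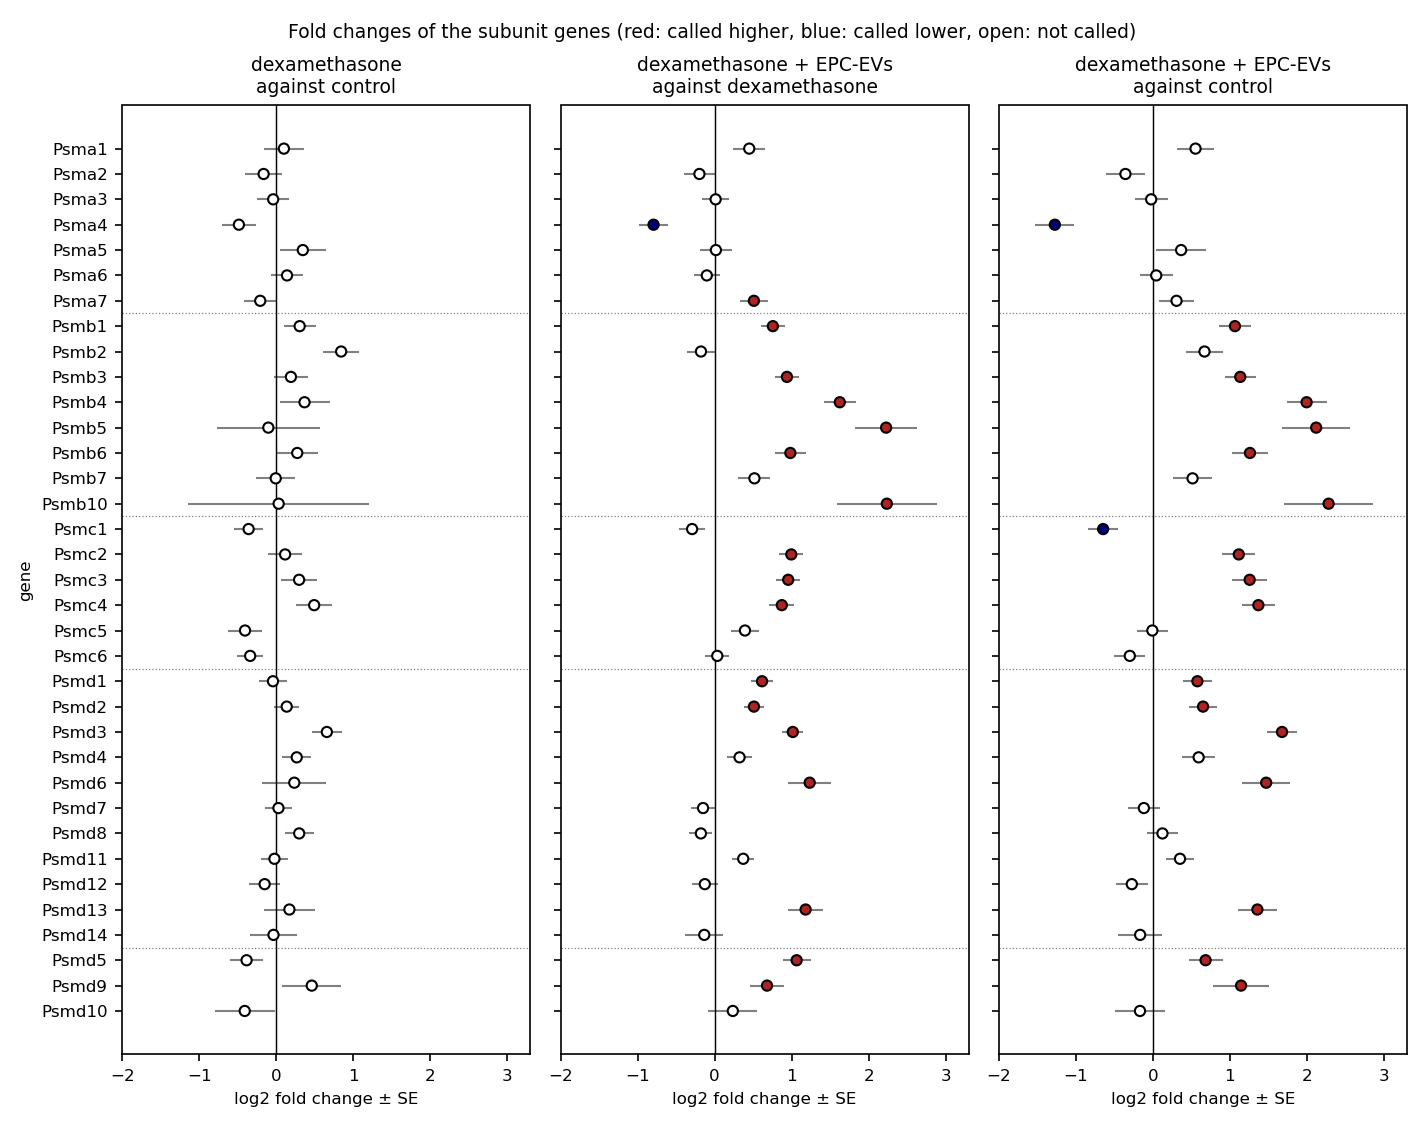
Log2 fold change of each gene with its standard error from edgeR in the 3 comparisons, filled red where called higher, filled blue where called lower and open where not called. All 35 points are open for dexamethasone against control, and 18 are filled in each of the other panels, most of them in the beta ring, the ATPases and the lid.

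The third comparison sets the vesicle group against control. It shares its vesicle libraries with the second and its control libraries with the first, so the values are given side by side and not as further evidence. Called higher were 16 of the 35 genes and called lower 2, or 45.7% and 5.71%, where 19.1% of the 13511 genes tested were called higher and 17.2% lower. The median was 0.58, beside 0.02 over all genes. Without overlap 23 genes lay higher and 4 lower, where 39.1% and 33.9% of all genes did. By the study's thresholds 4 were higher and 0 lower, where 11.2% and 9.52% of all genes were.

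By role, the beta ring again held 6 genes called higher and none lower, the ATPases 3 higher and 1 lower, the non-ATPases 5 higher, the chaperones 2 higher and the alpha ring 1 lower. These tallies moved with the trend on GC content and length removed. Psmb3, Psmb6, Psmb10, Psmc3, Psmd2, Psmd3, Psmd9 and Psmd13 then lost the call, and Psma1, Psma3 and Psmc6 were called higher. The largest rises among members that averaged at least 10 CPM were those of Psmb5 (4.35-fold, log2 2.12 ± 0.44 SE, edgeR adjusted p = 0.00691), Psmb4 (3.99-fold, log2 2.00 ± 0.26 SE, edgeR adjusted p = 0.000978) and Psmd3 (log2 1.68 ± 0.19 SE, edgeR adjusted p = 0.000629). Psmd3 (chr11:98682554-98695979, plus strand) was at 54.0 ± 4.02 CPM (SD, n = 2) in control and at 85.6 ± 0.463 CPM in dexamethasone, which did not pass the test, and at 176 and 181 CPM with EPC-EVs. Its call was lost with the trend on GC content and length removed, as were those of Psmb6 and Psmb10. Psmb6 (log2 1.26) and Psmb10 (2.28) were called higher. Psmb10 was lost without either dexamethasone + EPC-EVs library, at log2 2.19 and 2.37, and was at 2.89 without the second control library. Psmb5 was at 2.85 without the first control library and at 1.69 without the second.

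The falls against control were Psma4 and Psmc1. Psma4 went from 112 and 163 CPM in control to 66.7 and 50.7 CPM (log2 -1.27 ± 0.26 SE, edgeR adjusted p = 0.0058). The ATPase gene Psmc1 (chr12:100110154-100123405, plus strand) went from 102 and 94.7 CPM to 64.9 and 64.8 CPM (log2 -0.65 ± 0.20 SE, edgeR adjusted p = 0.0326), with 83.3 and 70.5 CPM in dexamethasone between them. That call was lost without the first control library (-0.56) and without either dexamethasone + EPC-EVs library (-0.64 and -0.63). Of the other named genes, Psmb7 was at 0.51 (95% interval -0.07 to 1.10), Psma1 at 0.55 (0.02 to 1.09), Psmd4 at 0.59 (0.11 to 1.08), Psmc6 at -0.30 (-0.77 to 0.16) and Psmd14 at -0.17 (-0.82 to 0.49), none of them called. Without the second control library Psma1 (0.75) and Psmd4 (0.73) were called. Psmd4 was called too with library totals alone, the replicate block, no filter, at least 10 counts in every library and 1 fit of all libraries. The last 3 of these settings also called Psmb2. Psmd1, Psmd2, Psmd5 and Psmd9, called higher here, each lost the call when 1 library was left out: Psmd1 without the first control library (0.52), Psmd1 and Psmd2 without either vesicle library (0.51 to 0.70), and Psmd5 and Psmd9 without the second control library (0.62 and 0.77) or the second vesicle library (0.48 and 1.05). Upper quartile normalization also ended the calls of Psmd1 and Psmd5. Psmd9 was at 1.74 without the first control library, beside 1.14 with all libraries. Psma5 was called at 0.93 without the first control library, beside 0.37 with all libraries.

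The fold changes went in part with base composition. The GC content of the transcript ran from 45.1% to 58.3% with a median of 52.7% in the 17 genes called higher than in dexamethasone, and from 37.0% to 54.4% with a median of 47.9% in the 17 not called, so that the ranges overlapped. Across the 35 genes the log2 fold change went with GC content at a Pearson r of 0.56 (Spearman rho 0.52) for dexamethasone + EPC-EVs against dexamethasone, 0.68 (0.70) against control, and 0.54 (0.55) for dexamethasone against control. The same held across all genes tested, with r of 0.45, 0.53 and 0.34, and genes measured in the same libraries are not independent. Between the 2 libraries of one group, r over the 35 genes was 0.27 for control, 0.16 for dexamethasone and 0.20 with EPC-EVs. With the gene length the 3 fold changes went at r of -0.07 to -0.04.

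When a smooth trend on GC content and length over all genes was removed, the number of calls against dexamethasone stayed at 17 higher and 1 lower, where 15.8% and 15.2% of all genes were called, but the genes changed in part: 11 of the 18 were called both ways. Psmb5 (log2 1.62, adjusted p = 0.00748 in edgeR), Psmb4 (1.37), Psmd6 (1.35), Psmd5 (1.38) and Psmb1 (0.74) stayed called. Psmb6 (0.44), Psmb10 (1.60), Psmd3 (0.34), Psmd2 (0.33), Psmd9 (0.44), Psma7 (0.33) and Psma4 (-0.50) were no longer called. Psmc6 moved from 0.03 to 1.18 (adjusted p = 0.000151 in edgeR), and Psma1 (0.82), Psma2 (0.65), Psma3 (0.69), Psmd10 (0.94) and Psmd11 (0.46) were called higher and Psmd8 (-0.46) lower. On this scale the median of the alpha ring was 0.33, with 5 of its 7 genes above 0, and that of the beta ring 0.65, with 7 of 8 above 0. Against control, 11 were called higher and 2 lower, where 12.2% and 14% of all genes were, and 10 of the 18 genes were called both ways. Psmd3 went there from 1.68 to 0.57 (adjusted p = 0.0504 in edgeR), and Psmb6 (0.36) and Psmb10 (1.27) were no longer called, nor were Psmb3, Psmc3, Psmd2, Psmd9 and Psmd13. Psmb5 (1.20) and Psmb4 (1.53) stayed called. The median of the 35 was then 0.47 against dexamethasone and 0.46 against control. After the removal, r with GC content was between -0.09 and -0.04 in the 3 comparisons.

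**Figure D4:**
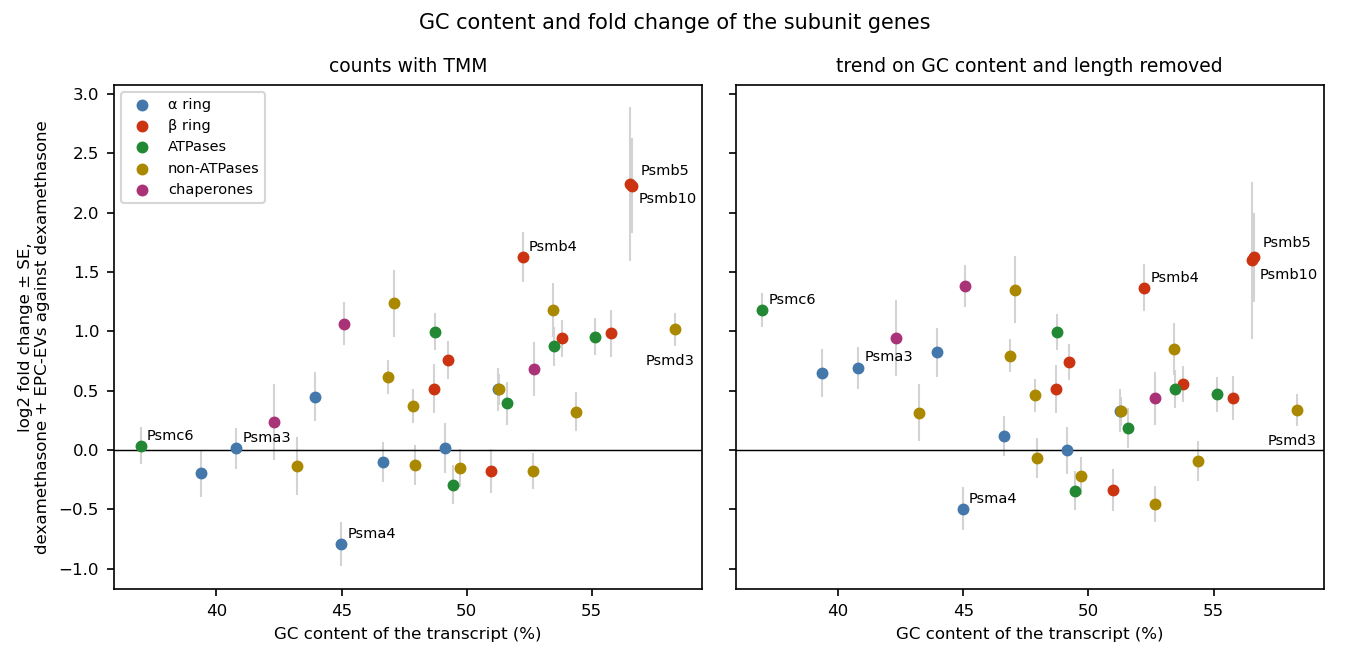
Log2 fold change of dexamethasone + EPC-EVs against dexamethasone with its standard error, plotted against the GC content of the transcript in percent for the 35 genes, coloured by role, as counted (left) and after removal of the trend on GC content and length (right). On the left the points rise from Psmc6 at 37.0% to Psmb5 and Psmb10 near the right end, with r of 0.56, and on the right Psmc6 stands at 1.18 and r is -0.07.

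Of the genes around the complex, none was called in dexamethasone against control. In dexamethasone + EPC-EVs against dexamethasone, 2 of 13 regulators, further subunits and core assembly factors were called higher and 2 lower. These counts and those of the lists that follow stand beside the 20.9% of all genes called higher and 18.9% called lower, and nothing particular to a list is read from them. Adrm1, the ubiquitin receptor beside Psmd4, rose from 34.2 and 48.3 CPM to 89.6 and 94.7 CPM (log2 1.11, edgeR adjusted p = 0.000913). Psmg3, a chaperone of the core particle, had no count in the 4 control and dexamethasone libraries and 35 and 34 counts with EPC-EVs, so that it entered the test only through the group where it was high. The activators Psme4 (log2 -0.92) and Psme1 (-0.58) fell. Sem1, a small lid subunit outside the naming rule, was at 162 and 161 CPM and then 186 and 177 CPM and was not called, as was Pomp, which matures the core (log2 0.41). Against control the same 2 were higher and the same 2 lower.

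Of 10 immunoproteasome and antigen processing genes, a list that holds Psmb10 and Psme1 as well, Psmb10 and Tapbp (log2 2.18) rose and B2m (-2.31) and Psme1 fell. Of 13 genes for ubiquitin, its activating enzymes, shuttle factors and enzymes bound to the proteasome, 3 rose (Ube3c, Ubqln2 and Ubqln4) and 4 fell (Rad23b, Uba6, Uchl5 and Usp14). The shuttle gene Rad23b fell by 0.92 on the log2 scale. The deubiquitinases of the regulatory particle, Uchl5 (log2 -1.58) and Usp14 (-0.69), both fell. Of 12 genes for NRF1, its processing and the control of proteasome genes, Mafg (0.96), Nploc4 (0.98) and Vcp (0.98) rose. Nfe2l2 (-1.38), a gene other than Nfe2l1 and not that of NRF1, fell. Vcp encodes the segregase that pulls NRF1 out of the membrane of the endoplasmic reticulum. Nfe2l1 had 447 and 443 CPM in dexamethasone and 518 and 660 CPM with EPC-EVs, and was not called (log2 0.36, adjusted p = 0.0526 in edgeR). None of 6 ubiquitin ligases known from muscle treated with glucocorticoids was called. The medians of these lists ran from -0.07 to 0.29, beside 0.51 over the 35 subunit genes.

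Against control, where 19.1% of all genes were called higher and 17.2% lower, Tap2 was called beside Psmb10 and Tapbp, Rps27a and Uba1 beside Ube3c and Ubqln4, and the ligases Fbxo31 (log2 1.50) and Trim63 (2.49) were called higher. Trim63 had 5 and 4 counts in control and 66 and 54 with EPC-EVs, and passed the filter on low counts only through the vesicle libraries. The genes called lower in these lists, and all those called in the NRF1 list, were the ones named above for the second comparison.

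Transcripts were listed for chromosome 1, which holds Psmd1 (chr1:86064387-86139151, plus strand). Of its 10 transcripts, the full-length one of 25 exons was at 22.6 and 26.0 FPKM in control, 33.8 and 29.9 FPKM in dexamethasone and 52.8 and 44.2 FPKM with EPC-EVs. The FPKM of the gene was lower, at 24.1 and 21.4 with EPC-EVs. Its length was 7265 bases, beside 3112 for this transcript. One assembled form without an annotated name had 8.65 FPKM in the first control library and 2.89 in the first dexamethasone library, and at most 0.0310 in the others. No other Psmd1 transcript passed 2.94 FPKM.

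Some members share sequence or position with other genes, and their counts are less certain. By annotation 17 of the 35 overlap another gene, 9 of them solely on the opposite strand, Psma4 (with AY074887) and Psmb10 (with Gm16156) among these. The study gives a setting for stranded reads in the alignment, but whether the counting used strand is not given in the sources used here. For 8 genes, Psma3, Psma4, Psma5, Psmb3, Psmb5, Psmc1, Psmd2 and Psmd11, at least 1 pseudogene matches 150 bases or more of the transcript at 95% identity or more, so that reads could be split or lost between copies.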

How the data were processed

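RNA of 6 libraries was analysed, 2 in each of 3 groups, grouped by the labels. The authors aligned the reads to GRCm38 with HISAT2 and counted them per gene with HTSeq 0.6.1, and deposited whole-number counts without normalization and, beside them, the FPKM of each gene. The FPKM of transcripts, deposited for chromosome 1, came from StringTie. These values were used as deposited.

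Counts were fitted in R 4.3.3 with edgeR 4.0.16 (TMM, filterByExpr, robust quasi-likelihood test) on the 4 libraries of each comparison, adjusted over all genes by the Benjamini-Hochberg method and called at an adjusted p under 0.05. SEs are the log2 fold change divided by the root of F. The trend on GC content and length was a loess fit with a span of 0.4 over the genes tested, in each library. GC content was that of the longest coding GENCODE vM21 transcript of a gene, or else of its longest one. The gene length was worked out from the deposited counts and FPKM. The tests were tested on simulated data. Alternatives were DESeq2 1.42.0, other normalizations and filters, 1 fit of all libraries, a replicate block and leaving out each library.

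The members and lists were chosen with earlier results of these data known. Genes described in full were Psmb5, Psmb6, Psmb7, Psmb10, Psmd4, Psmd14, Psmc6 and Psma1, and the 3 largest rises and falls called at a mean of at least 10 CPM in each comparison. Other members and list genes were singled out after their values were seen, and 2 genes of the ubiquitin list are not reported here. Depth is given with the first values. Promoter windows are RefSeq's for GRCm38.p6, and pseudogenes were searched with BLAST 2.17.0.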

Additional observations from a re-analysis of the deposited data

How the results depend on the processing

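With 16 alternatives in each comparison, all 18 genes called against dexamethasone kept their direction, and 10 stayed called under every one that gave a value: Psmb1, Psmb3, Psmb4, Psmb5, Psmc2, Psmc3, Psmc4, Psmd5, Psmd6 and Psmd13. Against control all 18 kept their direction and Psma4, Psmb1, Psmb4, Psmb5, Psmc2, Psmc4 and Psmd6 stayed called. Psmb10 gave no value with a filter of at least 10 counts in every library. Without the mitochondrially encoded genes the same 18 were called against dexamethasone, the same 18 against control and 0 in dexamethasone against control. Of all genes, 39.9%, 36.3% and 0.00773% were called in these fits. DESeq2 called 16 against dexamethasone (without Psma7 and Psmd9), 18 against control and 0 in dexamethasone against control, counted over genes given an adjusted p. It called 33.4%, 33.9% and 2.64% of the 14818, 14636 and 4886 genes to which it gave one. Psma7 against dexamethasone also lost its call with upper quartile normalization, library totals alone, 1 fit of all libraries and the length trend or the GC and length trend removed. Psmd9 lost it there with 1 fit of all libraries and with the GC and length trend removed. Against control, upper quartile normalization ended the calls of Psmd1 and Psmd5. Leaving out each library gave 13 to 19 calls against dexamethasone, with medians of 0.46 to 0.60, 12 to 18 against control, with medians of 0.52 to 0.71, and 0 to 4 in dexamethasone against control, with medians of 0.05 to 0.12, while 22.3% to 34.8%, 24.6% to 42.8% and 0.0661% to 16% of all genes were called. The thresholds of the study's methods gave 3 and 4 calls. The median of dexamethasone against control was 0.18 with library totals alone, -0.028 with the length trend removed and 0.0062 with the GC and length trend removed, and against control the latter 2 gave 0.37 and 0.46. The replicate block, which takes libraries with the same number as pairs, gave the same 18 calls against dexamethasone, 17 against control (without Psmd1 and Psmd5, with Psmd4) and 0 in dexamethasone against control, where it turned Psmb10 to -0.36. Libraries of the same number deviated together at r of 0.12, 0.01 and 0.04 over 10797 genes, so the block rests on the number alone.

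With the GC and length trend removed, 12 of the 35 values turned sign in dexamethasone against control, 5 in dexamethasone + EPC-EVs against dexamethasone and 8 in dexamethasone + EPC-EVs against control. The signs that turned belong to values that were not called, with 3 exceptions, all with the GC and length trend removed: Psma2 against dexamethasone (0.65, from -0.20), and Psma3 (0.86, from -0.023) and Psmc6 (1.13, from -0.30) against control. Of the genes described in full, in dexamethasone against control, the GC and length trend turned Psmb6 (-0.049), Psmb10 (-0.33), Psmd4 (-0.039) and Psmd14 (0.094), the length trend Psmb10 (-0.10) and Psma1 (-0.028), and library totals Psmb7 (0.072) and Psmd14 (0.043). Leaving out each library gave -0.92 to 0.59 for Psmb5, -0.17 to 0.20 for Psmb7, -1.90 to 0.83 for Psmb10, -0.36 to 0.27 for Psmd14 and -0.19 to 0.34 for Psma1. Against dexamethasone, the GC and length trend turned Psmd4 (-0.091) and Psmd14 (0.31), upper quartile normalization, library totals and the length trend turned Psmc6 (-0.0090, -0.013 and -0.011), and leaving out each library gave -0.39 to 0.20 for Psmd14 and -0.14 to 0.22 for Psmc6. Against control, the GC and length trend turned Psmd4 (-0.16), Psmd14 (0.40) and Psmc6 (1.13), and leaving out each library gave -0.37 to 0.14 for Psmd14. The cause was not tested. With 1 library left out, the spread of the lone remaining library was taken from the other group. At this depth, Psmb10 with 4 and 27 counts in the dexamethasone libraries is the least precise member.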
